A study of Mus musculus with 8 samples.

Results

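Genes that mark disease-associated microglia were followed through the corpus callosum, the large white matter tract between the hemispheres, in 8 RNA-seq libraries. The 10 genes, taken by symbol as known markers of this state, were *Trem2*, *Tyrobp*, *Apoe*, *Lpl*, *Clec7a*, *Itgax*, *Axl*, *Cst7*, *Spp1*, and *Gpnmb*, out of 25239 genes in the deposited table. All 10 reached 0.1 CPM (the authors' reads per gene scaled by effective library size) on average over the libraries, as did 18123 of the 25239 genes, and these were the genes tested. Young adult male mice, labelled C57BL/6 (C57BL/6J in the study's methods), carried the label WT (wild type) or TRPA1-KO (Trpa1 -/-, a line backcrossed to C57BL/6J that lacks the cation channel TRPA1 in all cells). They underwent BCAS, in which microcoils narrow both common carotid arteries and lower cerebral blood flow, or a sham operation without coils. Each label had 1 sham library from day 14 and 1 BCAS library each from days 7, 10, and 14, so every combination of label, operation, and day was a single library. The libraries held between 7896071 and 12952093 reads on genes, and 3 reads corresponded to between 0.235 and 0.378 CPM.

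Microglia are the resident macrophages of the brain. Around damaged myelin, plaques, or dying cells, they leave their homeostatic program and take up a state in which lipid handling, lysosomal, and phagocytic genes are raised. Entry into the full state is known to need the lipid receptor TREM2 and its adaptor TYROBP, and in white matter this state is linked to the clearance of myelin debris.

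Sequences upstream of the start sites were searched for motifs of PU.1, the lineage factor of macrophages, AP-1, a factor of stimulated cells, and the lysosomal regulators MITF and TFEB. The 250 bases upstream of the RefSeq start site (GRCm38.p6) were searched on both strands for AGGAAGT (PU.1), TGANTCA (AP-1), and CACGTG (the E-box of MITF and TFEB). No 2 matches overlapped. Of the 10 genes, 8 matched the RefSeq table, with 12 windows; *Tyrobp* and *Lpl* were not matched. AGGAAGT lay in the windows of *Cst7* and of the upstream start site of *Spp1*, and TGANTCA in those of *Trem2* and *Itgax*. CACGTG lay in none of the 12 windows, and none of the 3 motifs lay in the windows of *Apoe*, *Clec7a*, *Axl*, and *Gpnmb*. Of all 32851 windows, 7.69% held the PU.1 letters, 6.75% the AP-1 letters, and 6.02% the E-box letters. The 4 windows that held a match, whatever the change of their genes, follow in gene orientation, 5′ to 3′, with the motif in capitals.
Cst7, chr2:150570165-150570414, + strand: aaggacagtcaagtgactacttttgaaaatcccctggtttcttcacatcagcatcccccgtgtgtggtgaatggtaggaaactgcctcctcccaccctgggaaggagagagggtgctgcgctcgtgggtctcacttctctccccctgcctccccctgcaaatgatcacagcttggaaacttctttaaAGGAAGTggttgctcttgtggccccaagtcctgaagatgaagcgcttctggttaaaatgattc
Spp1, chr5:104434861-104435110, + strand: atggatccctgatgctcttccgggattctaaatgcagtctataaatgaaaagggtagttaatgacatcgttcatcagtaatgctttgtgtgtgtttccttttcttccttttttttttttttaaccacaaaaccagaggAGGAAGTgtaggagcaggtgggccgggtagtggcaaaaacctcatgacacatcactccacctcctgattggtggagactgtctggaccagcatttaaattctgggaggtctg
Trem2, chr17:48346151-48346400, + strand: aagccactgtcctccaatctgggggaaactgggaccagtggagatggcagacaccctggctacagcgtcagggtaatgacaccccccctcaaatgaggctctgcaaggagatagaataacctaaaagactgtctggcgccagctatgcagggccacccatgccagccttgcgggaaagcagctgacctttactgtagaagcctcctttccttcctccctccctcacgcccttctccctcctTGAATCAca
Itgax, chr7:128129300-128129549, + strand: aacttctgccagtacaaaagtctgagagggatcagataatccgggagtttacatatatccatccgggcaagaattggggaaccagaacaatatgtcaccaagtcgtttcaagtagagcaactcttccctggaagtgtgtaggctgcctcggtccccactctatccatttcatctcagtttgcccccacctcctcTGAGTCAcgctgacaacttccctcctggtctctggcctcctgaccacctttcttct
The first base of the motif was at -63 in *Cst7*, -112 in *Spp1*, -9 in *Trem2*, and -56 in *Itgax*, counted from the start site. These matches are descriptions of the sequence, and binding was not measured.

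The targeted gene was examined in every library before the members. *Trpa1* had 1 read in the sham library labelled WT and 0 reads in each of the 3 BCAS libraries labelled WT. Under the label TRPA1-KO, 10 reads were found in sham and 11, 3, and 7 on BCAS days 7, 10, and 14. The reads therefore went against the genotype labels, with no overlap between the labels (mean log2(CPM + 1) of 0.027 for WT and 0.83 for TRPA1-KO, two-sided exact permutation p = 0.029, the smallest that 4 against 4 libraries can give). The values are per gene, so whether these reads lie inside or outside the deleted part of *Trpa1* is not known. Libraries are named by their label throughout, and no direction given below is tied to the genotype itself. Oligodendrocyte genes were abundant, with *Mbp* at 6495 and 7246 CPM in the sham libraries, and the homeostatic microglia gene *P2ry12* was present at 30.7 and 34.1 CPM. Neuronal RNA was also present, with *Snap25*, a synaptic protein gene, between 2110 and 2945 CPM over the 8 libraries.

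The BCAS library labelled WT from day 7 stood apart. It had the highest level of the 8 libraries for 10 of the 10 genes, whereas 21.9% of all genes tested were highest in it. The next highest was the day 10 library labelled WT for 6 of the genes and the day 14 library labelled TRPA1-KO for 3. On the log2(CPM + 1) scale, the median over the 10 genes of the difference from the mean of both sham libraries was 2.08 in the day 7 library labelled WT, followed by 0.97 on day 10 and -0.068 on day 14. Under the label TRPA1-KO the same median took the values 0.0056, 0.023, and 0.68 on those days. The median over all genes tested lay within 0.01 of 0 in each BCAS library. Each of the 10 genes was thus higher on day 7 than on day 10, and on day 10 than on day 14, over the BCAS libraries labelled WT. Among those labelled TRPA1-KO, 8 were highest on day 14, whereas *Spp1* was highest on day 7 and *Axl* on day 10. With 1 library per day and label, the day cannot be told apart from the animal sampled.

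**Figure D1:**
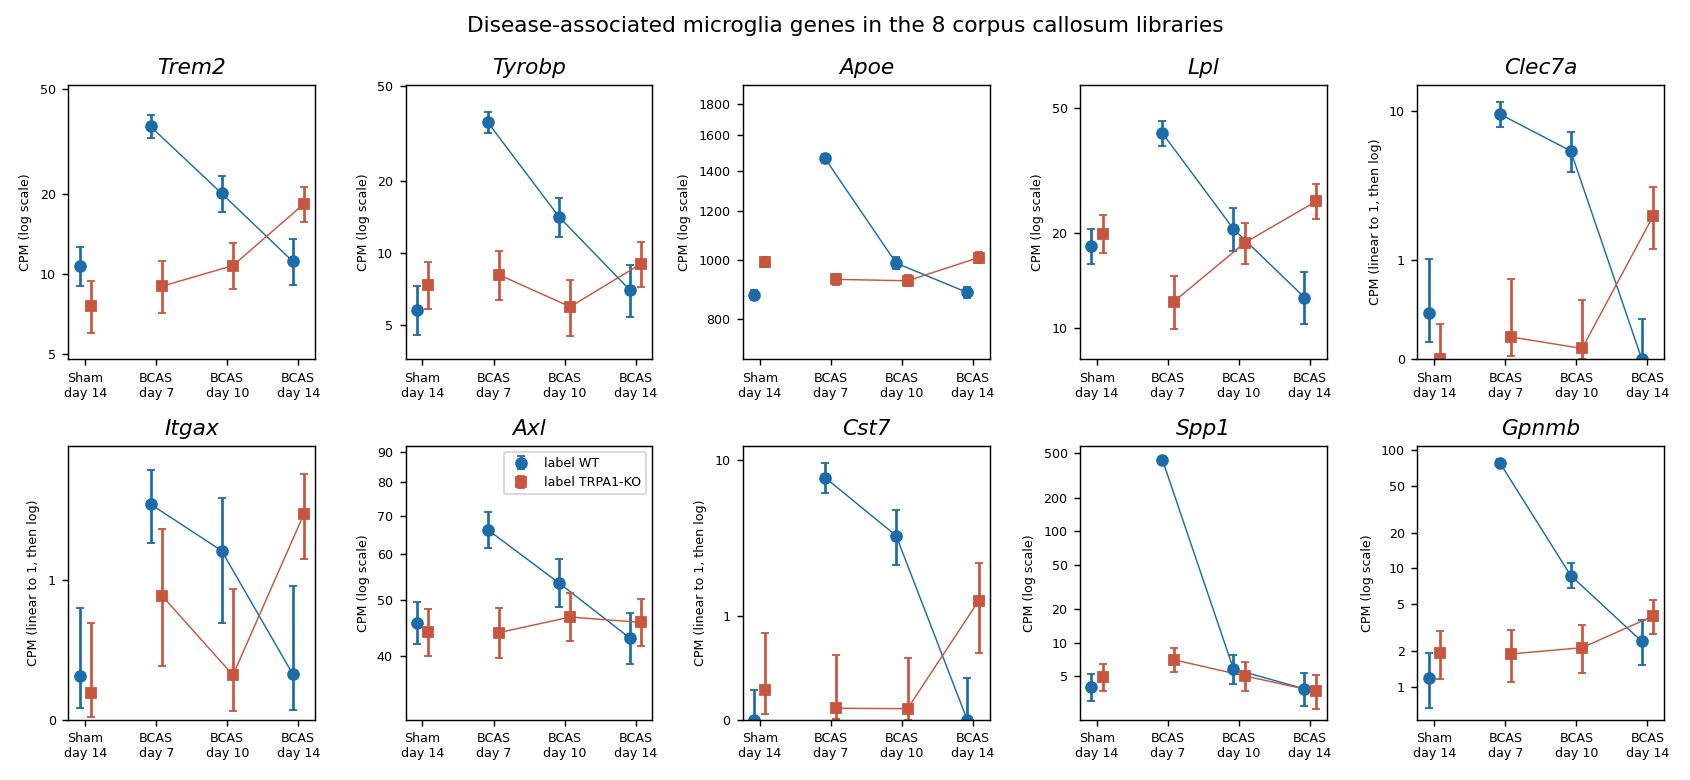
Level of each of the 10 genes in CPM (log scale, or linear up to 1 and log above it for *Clec7a*, *Itgax*, and *Cst7*) in the 8 libraries, by operation and day and by label. Points are single libraries, and bars are exact 95% binomial intervals of the reads, which cover counting error only. Lines join the BCAS libraries of a label as a guide. The day 7 library labelled WT is the highest in all 10 panels.

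The receptor and its adaptor both fell with day in the BCAS libraries labelled WT. *Trem2* encodes a receptor for lipids and apolipoproteins on microglia (ENSMUSG00000023992.14, chromosome 17, 48346401 to 48354147, GRCm38). Its level was 10.7 and 7.58 CPM in the sham libraries labelled WT and TRPA1-KO. In the BCAS libraries labelled WT it was 36.0, 20.2, and 11.2 CPM on days 7, 10, and 14, and with the label TRPA1-KO it was 9.02, 10.8, and 18.4 CPM. All 3 BCAS libraries labelled WT were above both sham libraries, though that of day 14 only slightly. *Tyrobp*, which encodes the signalling adaptor that TREM2 needs (ENSMUSG00000030579.10, chromosome 7, 30413760 to 30417585), was at 5.79 and 7.38 CPM in sham. It was at 35.3, 14.2, and 7.02 CPM in the BCAS libraries labelled WT and at 8.13, 5.98, and 9.05 CPM in those labelled TRPA1-KO. With the label TRPA1-KO, *Trem2* was thus higher on each later day, while *Tyrobp* was lowest on day 10. The day 7 level labelled WT was 3.87 times that of the pooled sham reads for *Trem2* (exact 95% interval 3.27 to 4.59) and 5.43 times for *Tyrobp* (4.49 to 6.59). These intervals, like those below, cover the counting of reads in the named libraries and not the spread between mice.

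The lipid genes changed less. *Apoe* encodes apolipoprotein E, a lipid carrier that astrocytes make in quantity even at rest (chromosome 7, 19696109 to 19699188). It was at 875 and 992 CPM in sham, at 1465, 987, and 884 CPM in the BCAS libraries labelled WT, and at 929, 924, and 1008 CPM in those labelled TRPA1-KO. Apart from day 7 with the label WT, which was 1.58 times the pooled sham level (1.55 to 1.61), the libraries stayed close together. *Lpl* encodes lipoprotein lipase, which splits triglycerides (chromosome 8, 68880491 to 68907448). It was at 18.2 and 19.9 CPM in sham, at 41.7, 20.7, and 12.5 CPM with the label WT, and at 12.1, 18.7, and 25.3 CPM with the label TRPA1-KO. Its order over the days was thus opposite in the BCAS libraries of the 2 labels, and the lowest of each set lay below both sham libraries.

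*Clec7a*, *Itgax*, and *Axl* encode surface receptors. *Clec7a* encodes dectin-1, a receptor for beta-glucans (chromosome 6, 129461591 to 129472779), and was nearly absent from sham, with 6 reads (0.469 CPM) and 0 reads. It reached 9.60 CPM (108 reads) on day 7 and 5.42 CPM (43 reads) on day 10 with the label WT, and was at 0 reads on day 14, where 3 reads would be 0.329 CPM. With the label TRPA1-KO it was at 0.223, 0.107, and 1.98 CPM, the last from 19 reads. Days 7 and 10 with the label WT and the day 14 library labelled TRPA1-KO were therefore above both sham libraries, and the day 7 level labelled WT was 37.2 times that of the pooled sham reads (16.5 to 103). *Itgax* encodes CD11c, an integrin subunit (ENSMUSG00000030789.9, chromosome 7, 128129547 to 128150657) and was low in every library. It was at 0.313 and 0.192 CPM in sham, at 2.31, 1.39, and 0.329 CPM with the label WT, and at 0.891, 0.320, and 2.08 CPM with the label TRPA1-KO. Its day 14 library labelled TRPA1-KO (20 reads) came close to day 7 with the label WT (26 reads). *Axl* encodes a receptor tyrosine kinase that helps to engulf dying cells (chromosome 7, 25757273 to 25788705). It was at 45.7 and 44.0 CPM in sham, at 66.2, 53.6, and 43.0 CPM with the label WT, and between 44.0 and 46.8 CPM under the label TRPA1-KO. Libraries labelled TRPA1-KO thus stayed close to sham, and day 7 with the label WT was 1.47 times the pooled sham level (1.34 to 1.62).

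The secreted and lysosomal genes included *Spp1* and *Gpnmb*, whose log2(CPM + 1) differences from the sham mean on day 7 with the label WT (6.33 and 4.98) were followed by those of *Clec7a* (3.13) and *Cst7* (2.94). *Cst7* encodes cystatin F, an inhibitor of lysosomal cysteine proteases (ENSMUSG00000068129.5, chromosome 2, 150570415 to 150578944). It had 0 and 3 reads in sham, reached 7.74 CPM (87 reads) on day 7 and 3.28 CPM (26 reads) on day 10 with the label WT, and had 0 reads on day 14. With the label TRPA1-KO it had 1, 1, and 12 reads. The ratio of day 7 with the label WT to the pooled sham reads was 59.9, with an interval from 19.8 to 296 because sham held only 3 reads. *Gpnmb* encodes a lysosomal membrane glycoprotein (ENSMUSG00000029816.10, chromosome 6, 49036546 to 49070929). It was at 1.17 and 1.92 CPM in sham, at 78.3, 8.70, and 2.41 CPM with the label WT, and at 1.89, 2.14, and 3.95 CPM with the label TRPA1-KO. Every BCAS library labelled WT was above both sham libraries, and day 7 was 51.9 times their pooled level (37.0 to 75.0). *Spp1* encodes osteopontin, a secreted matrix protein (ENSMUSG00000029304.14, chromosome 5, 104435118 to 104441050). It was at 3.99 and 4.89 CPM in sham and at 436 CPM on day 7 with the label WT, 99.3 times the pooled sham level (81.6 to 122). On days 10 and 14 with that label it was at 5.80 and 3.84 CPM, and with the label TRPA1-KO it was at 7.01, 5.02, and 3.64 CPM. The 7 libraries other than day 7 with the label WT thus lay between 3.64 and 7.01 CPM. *Spp1* overlaps the annotated gene Gm42793 on the same strand, and their reads may not have been separable.

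In its RNA-seq, the study compared BCAS with the label WT against BCAS with the label TRPA1-KO (3 libraries each). This comparison gave a higher mean with the label WT for all 10 genes but no call by limma. The log2 fold change of CPM + 1 had a median of 0.81 over the 10 genes, against 0.0011 over all genes tested. By limma, 0 of the 10 had p under 0.05, where 2.40% of all genes tested were higher at that threshold, and 0 of the 10 passed after Benjamini-Hochberg adjustment, where 0.0166% did. The largest differences were those of *Spp1* (2.0, SE 1.34), *Gpnmb* (1.96, SE 0.88), *Clec7a* (1.36, SE 0.74), and *Cst7* (1.25, SE 0.65). *Tyrobp* differed by 0.93 (SE 0.43) and *Trem2* by 0.69 (SE 0.36), while *Lpl*, *Axl*, *Apoe*, and *Itgax* differed by 0.29 or less. The adjusted p (limma) was 0.983 or 0.989 for each of them. The two-sided exact permutation p was between 0.2 and 0.7 for each gene, and 3 against 3 libraries cannot give less than 0.1. On the reads, edgeR gave p under 0.05 for 5 of the genes and DESeq2 for 1, all higher with the label WT. Of all genes tested, 3.53% and 2.44% were higher at that threshold with these tools. Neither gave an adjusted p under 0.05 for any of the 10.

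For none of the 10 genes was every BCAS library labelled WT above every one labelled TRPA1-KO, where 4.48% of all genes tested were. Matched by day, 10 of the 10 were higher with the label WT on day 7 (median log2 difference 1.94) and 10 of 10 on day 10 (0.85), but only *Spp1* on day 14 (median -0.60). Over all genes tested, 51.0%, 49.6%, and 48.7% were higher with the label WT on those days. The difference rested largely on day 7. Without the day 7 library labelled WT, the median fold change fell from 0.81 to 0.18, 6 of the 10 genes were higher with the label WT, and 0 of the 10 had both remaining libraries above all 3 labelled TRPA1-KO, where 8.74% of all genes tested did. Without the day 14 library labelled WT, 7 of the 10 had limma p under 0.05, with a median of 1.27, but 6.75% of all genes tested were then higher at that threshold. Without that of day 14 labelled TRPA1-KO, 1 of the 10 did, and 2.78% of all genes.

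Against the sham libraries, the 2 labels of BCAS gave different numbers of calls, although both comparisons share the same 2 sham libraries. With the label WT, all 10 genes had a higher mean than sham, with a median log2 fold change of 1.10, and 5 of the 10 rose with limma p under 0.05, where 2.44% of all genes tested did. These were *Gpnmb* (log2 fold change 2.45, SE 0.93), *Clec7a* (1.75, SE 0.78), *Cst7* (1.56, SE 0.68), *Tyrobp* (1.12, SE 0.46), and *Trem2* (1.08, SE 0.39). None of the 5 passed the adjustment (limma adjusted p between 0.885 and 0.911), and 0.00% of all genes tested did. *Spp1* had a fold change of 2.17 with an SE of 1.41, from 1 high library and 2 near sham. *Itgax* was at 0.81 (SE 0.39), and *Axl*, *Apoe*, and *Lpl* were between 0.21 and 0.25. On the reads, edgeR gave p under 0.05 for 7 of the 10 and DESeq2 for 4, where 3.92% and 2.59% of all genes tested were higher. Neither gave an adjusted p under 0.05 for any of the 10. The two-sided exact permutation p was 0.2 at the lowest, for *Trem2*, *Itgax*, and *Gpnmb*, the 3 genes whose BCAS libraries labelled WT were all above both sham libraries, where 8.89% of all genes tested were, and 3 against 2 libraries cannot give less than 0.1. The 5 calls depended on single libraries. They became 1 (*Gpnmb*) without day 7 labelled WT and 2 without day 10, where 2.22% and 2.06% of all genes tested were higher at that threshold. They became 9 without day 14, where 6.54% were. They became 1 without the sham library labelled WT, 0 without that labelled TRPA1-KO, and 3 without either the day 7 or the day 10 library labelled TRPA1-KO, which enter through the shared spread, and 6 without that of day 14 labelled TRPA1-KO. In these 5 fits, between 0.96% and 2.33% of all genes tested were higher. The median was 0.53 without day 7 labelled WT. With robust moderation of the variances, limma gave 0 calls among the 10, where 2.19% of all genes tested were higher.

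With the label TRPA1-KO, 9 of the 10 had a higher mean than sham, but the median log2 fold change was 0.25. By limma, 0 of the 10 had p under 0.05, where 1.07% of all genes tested were higher, and 0 passed the adjustment, where 0.00552% did. That share is 1 gene, *Mog*, a myelin gene, which was lower (-0.73, SE 0.084, limma adjusted p = 0.046). edgeR gave p under 0.05 for 0 of the 10 and DESeq2 for 1, *Itgax*. Of all genes tested, 1.24% and 0.579% were higher with these tools. The largest value was that of *Itgax* (0.66, SE 0.39), whose 3 BCAS libraries labelled TRPA1-KO were all above both sham libraries, where 8.41% of all genes tested were, although day 10 (0.320 CPM from 3 reads) hardly differed from sham with the label WT (0.313 CPM from 4 reads). *Gpnmb* followed with 0.50 (SE 0.93), then *Trem2* with 0.40 (SE 0.39), and *Lpl* was at -0.084 (SE 0.39). The two-sided exact permutation p was 0.2 or more for each gene. The day 14 library carried this median, which was 0.048 without it, with 6 of the 10 higher. It was 0.41 without day 10 and 0.085 without the sham library labelled WT. In that day 14 library, 9 of the 10 genes were above both sham libraries, as 33.0% of all genes tested were, and *Spp1* was the exception.

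With the BCAS libraries of both labels together (6 against 2), the median log2 fold change was 0.74 and all 10 genes had a higher mean than sham. By limma, 0 of the 10 had p under 0.05, where 1.35% of all genes tested were higher, and 0 passed the adjustment, where 0.00% did. *Itgax* (0.73, SE 0.35) was the single member with every BCAS library above both sham libraries, where 2.60% of all genes tested were. *Trem2* was at 0.74 (SE 0.35). The two-sided exact permutation p was 0.14 for both of these genes, where 6 against 2 libraries can give 0.036. edgeR and DESeq2 each gave p under 0.05 for 2 of the 10, where 1.61% and 1% of all genes tested were higher. Each gave 0 of the 10 after adjustment. The median was 0.45 without day 7 labelled WT, and 7 of the 10 had limma p under 0.05 without day 14 labelled WT, where 3.45% of all genes tested were higher.

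**Figure D2:**
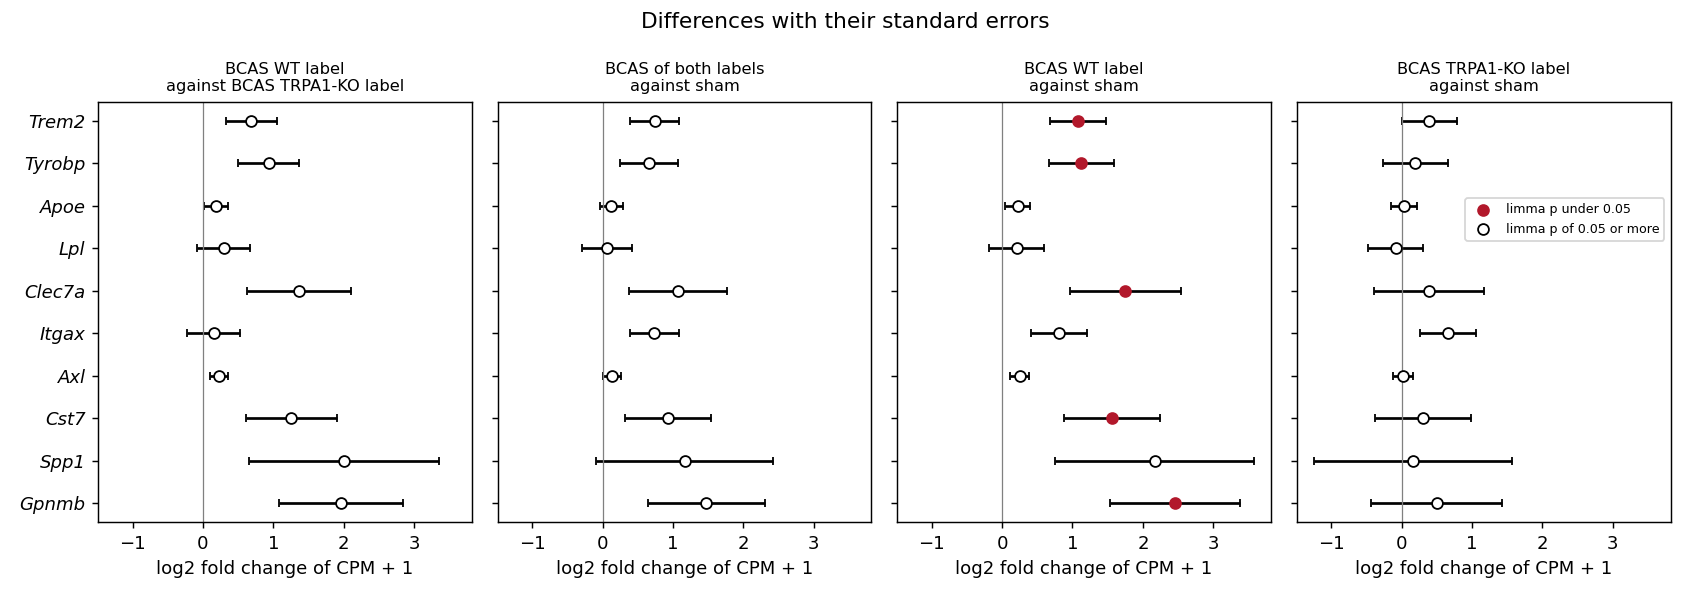
Log2 fold change of CPM + 1 of the 10 genes in the 4 comparisons, with 1 standard error from limma on each side. Filled points are genes with limma p under 0.05, which occur in the comparison of BCAS with the label WT against sham (5 of 10) and in no other; no point passes after adjustment.

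Other genes of the same state and pathway were taken from lists of known biology. These lists and those below were chosen with earlier results of these data known, so their counts are no independent check of the 10 genes. Of 26 further genes that disease-associated microglia raise, 7 were higher with limma p under 0.05 in BCAS with the label WT against sham (*B2m*, *Ctsd*, *Ctsl*, *Ctsz*, *Cd52*, *Ccl3*, and *Ccl6*) and 0 were lower, where 2.44% of all genes tested were higher, with a median log2 fold change of 0.50. Against BCAS with the label TRPA1-KO, 6 of the 26 were higher (*B2m*, *Ctsb*, *Ctsd*, *Ctsl*, *Cd9*, and *Ccl3*) and 0 were lower, where 2.40% of all genes tested were higher, with a median of 0.53. In BCAS with the label TRPA1-KO against sham, 0 of the 26 had p under 0.05, where 1.07% of all genes tested were higher, and the median was 0.024. None passed the limma adjustment in any of these comparisons. *Ctsd*, which encodes the lysosomal protease cathepsin D, was at 273 and 291 CPM in sham, at 1209, 510, and 281 CPM with the label WT, and at 279, 264, and 329 CPM with the label TRPA1-KO. *Lgals3*, which encodes galectin-3, was at 0.469 and 0.288 CPM in sham and 19.5 CPM on day 7 with the label WT, but at 1.26 CPM or less in every other library. Like *Spp1*, it was far higher in that library than in any other, whereas *B2m* of antigen presentation was nearly as high on day 10 (181 CPM) as on day 7 (199 CPM).

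Of 13 genes that act beside or below TREM2, 3 were higher in BCAS with the label WT against sham with limma p under 0.05: the kinases *Syk* (0.63, SE 0.26) and *Btk* (1.03, SE 0.38) and the phospholipase *Plcg2* (0.93, SE 0.40). Against BCAS with the label TRPA1-KO, 3 were also higher: *Plcg2*, the inositol phosphatase *Inpp5d*, and *Adam17*, which encodes a protease that sheds TREM2. Of all genes tested, 2.44% and 2.40% were higher at that threshold in these comparisons. The medians of the 13 were 0.32 and 0.36, and in BCAS with the label TRPA1-KO against sham the median was 0.026 with 0 of 13 called, where 1.07% of all genes tested were higher. None passed the limma adjustment in these 3 comparisons. *Plcg2* was at 2.89 and 4.89 CPM in sham and at 16.0, 7.81, and 4.06 CPM in the BCAS libraries labelled WT. The most abundant gene of the list, *Adam10*, lay between 89.3 and 107 CPM in all 8 libraries.

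Homeostatic microglia genes, which this state is known to lower within a cell, had a higher median than sham in BCAS with the label WT and a slightly lower one with the label TRPA1-KO. In BCAS with the label WT against sham, 11 of 11 had a higher mean, 2 had limma p under 0.05 (*Gpr34* and *Olfml3*, where 2.44% of all genes tested were higher), and the median log2 fold change was 0.49. Against BCAS with the label TRPA1-KO, 4 of 11 had p under 0.05, all higher (*P2ry13*, *Tmem119*, *Gpr34*, and *Olfml3*), where 2.40% of all genes tested were. In BCAS with the label TRPA1-KO against sham, 5 of 11 had a higher mean, 0 had p under 0.05 (1.07% of all genes tested were higher), and the median was -0.054. Under that label, 0 of 11 were above the sham mean on day 7, 3 on day 10, and 10 on day 14. *P2ry12*, an ADP receptor, was at 52.6, 45.6, and 31.2 CPM on days 7, 10, and 14 with the label WT, and at 29.9, 28.5, and 44.6 CPM with the label TRPA1-KO. Of 12 genes shared by microglia and macrophages, all 12 had a higher mean in BCAS with the label WT, both against sham and against BCAS with the label TRPA1-KO. Of these, 7 and 6 had limma p under 0.05 (2.44% and 2.40% of all genes tested), with medians of 0.995 and 0.888. *Csf1r*, *Itgam*, *Ptprc*, *Fcgr3*, *Ctss*, and *Laptm5* were higher in both comparisons at that threshold, and *Aif1* in the first. *Csf1r*, the receptor for the growth factor that microglia depend on, was at 93.3 and 93.5 CPM in sham, at 221, 154, and 99.1 CPM with the label WT, and at 87.1, 95.03, and 117 CPM with the label TRPA1-KO. None of these genes passed the limma adjustment. The shared genes followed the same days as the disease-associated genes: their summed level was 3.63 times the sham mean on day 7 and 1.96 times on day 10 with the label WT, and 1.35 times on day 14 with the label TRPA1-KO. In bulk tissue, more cells of a type and more RNA per cell cannot be told apart.

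**Figure D3:**
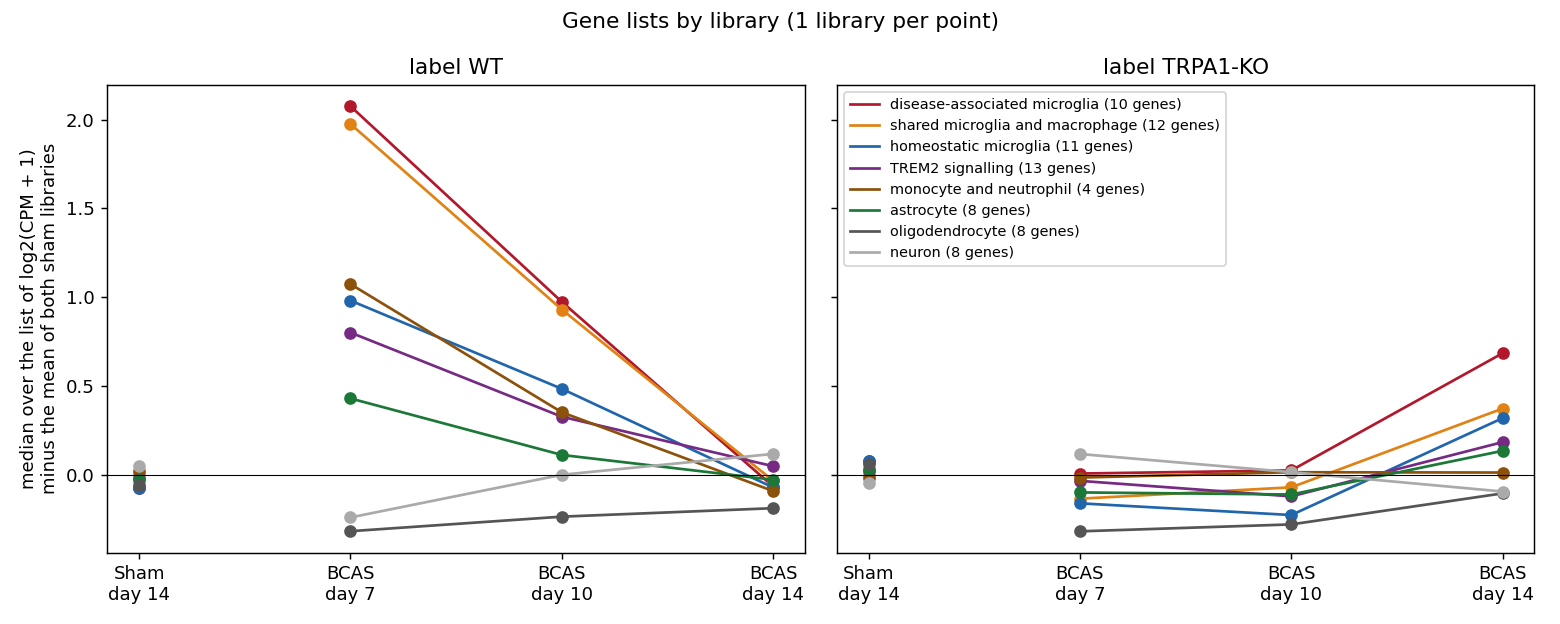
Median over each gene list of the log2(CPM + 1) difference from the mean of both sham libraries, in each library, with the label WT on the left and TRPA1-KO on the right; every point is 1 library. The disease-associated genes reach 2.08 and the shared myeloid genes 1.98 on day 7 with the label WT, the homeostatic genes 0.98, and oligodendrocyte genes lie below sham in all 6 BCAS libraries.

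Relative to the summed level of those 12 shared genes, the 10 genes split. On day 7 with the label WT, *Spp1* was 27.1 times, *Cst7* 15.1 times, *Gpnmb* 14.0 times, *Clec7a* 11.1 times, and *Itgax* 2.51 times the sham mean of this ratio. *Tyrobp* was at 1.48 times and *Trem2* at 1.08 times, so the receptor and adaptor lay closer to the summed shared genes than those 5 did. *Lpl*, *Apoe*, and *Axl*, which other brain cells also express, were at 0.60, 0.43, and 0.41 times. On day 10 with the label WT, *Cst7* and *Clec7a* were at 11.8 and 11.5 times, *Gpnmb* at 2.88 times, *Trem2* at 1.12 times, and *Tyrobp* at 1.10 times, but *Spp1* was at 0.67 times. On day 14 with the label TRPA1-KO, *Cst7*, *Clec7a*, and *Itgax* were between 6.08 and 6.55 times, *Gpnmb* at 1.90 times, *Trem2* at 1.49 times, *Tyrobp* just above 1, and *Spp1* at 0.61 times. *Cst7*, *Clec7a*, and *Itgax* had 3, 6, and 6 reads in both sham libraries together, so the size of their ratios is loosely set, and on day 7 with the label TRPA1-KO *Itgax* was at 3.86 times from 8 reads. In the other 3 BCAS libraries, the median level of the 10 genes was near sham, though not every gene was. There *Trem2* was between 1.08 and 1.22 times, *Gpnmb* between 1.35 and 1.56 times, and *Tyrobp* between 0.94 and 1.36 times. *Spp1* was between 0.86 and 1.74 times there, and in the sham libraries themselves *Trem2* reached 1.19 times. The ratio of *Trem2* on days 7 and 10 with the label WT lay within the range of those libraries. The homeostatic genes had a median of 0.56 times sham on day 7 and 0.72 times on day 10 with the label WT, and 0.92 times on day 14 with the label TRPA1-KO. In the other 3 BCAS libraries, this median was 0.97 and 0.87 times on days 7 and 10 with the label TRPA1-KO. It was 0.94 times on day 14 with the label WT, so that 0.92 lies within the range of those 3. *Sall1* and *P2ry12* were at 0.37 and 0.45 times on day 7, while *Fcrls* and *Olfml3* were at 1.53 and 1.21 times. These ratios are descriptions of single libraries, and no test was made of them. The 12 shared genes rose by different amounts on day 7 with the label WT. *Csf1r* was 2.37 times the pooled sham level there, while *Ptprc* was at 19.6 CPM against 4.07 and 3.84 CPM in sham. The size of each ratio therefore depends on which genes are summed.

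**Figure D4:**
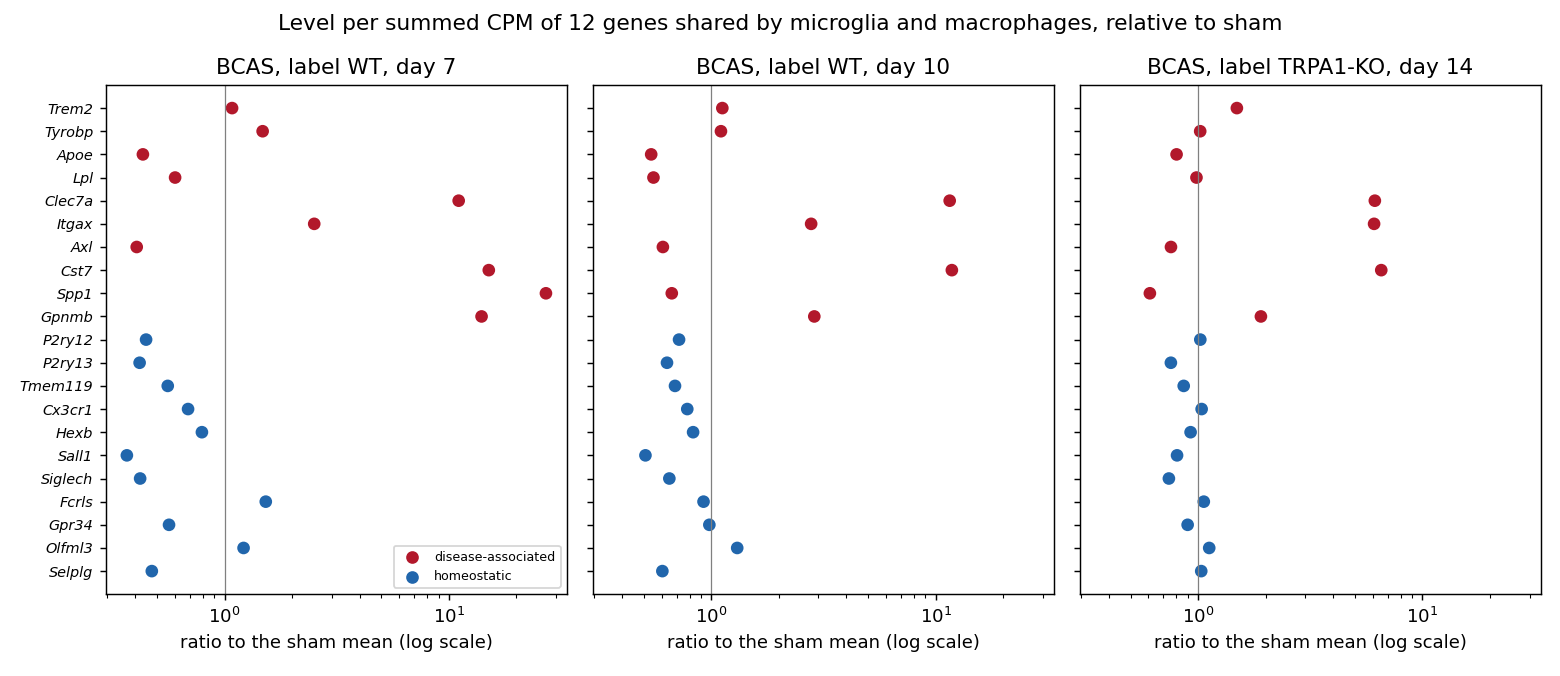
Level of each disease-associated gene (red) and homeostatic gene (blue) per summed CPM of 12 genes shared by microglia and macrophages, as a ratio to the mean of both sham libraries (log scale; the line marks 1), in 3 single libraries. *Clec7a*, *Itgax*, *Cst7*, *Gpnmb*, *Trem2*, and *Tyrobp* lie to the right of 1 in all 3 libraries. *Trem2*, *Itgax*, and *Gpnmb* do so also in the other 3 BCAS libraries, which are not drawn. Among the 3 drawn, *Spp1* does so only on day 7 with the label WT. In the libraries not drawn, *Spp1* was at 1.74 and 1.17 times on days 7 and 10 with the label TRPA1-KO.

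Markers of other cells were read in the same libraries. The 10 genes of monocytes and neutrophils summed to 11.4 CPM on day 7 and 4.79 CPM on day 10 with the label WT, against 2.43 and 1.44 CPM in sham and 1.25 CPM or less in the other 4 libraries. Their most abundant gene on day 7 was *Chil3* (4.45 CPM, and at most 1 read in every other library), followed by *Ly6c2* (3.38 CPM), while *Ccr2* was at 1.78 CPM. Of the genes of neutrophils, *S100a8* and *S100a9* had 5 reads each and *Camp* and *Retnlg* 2 each on day 7 with the label WT, the highest of the 8 libraries for each, and *Ly6g* and *Ngp* were at 0 there. Of these 10 genes, 4 passed the filter and 0 had limma p under 0.05 in any comparison. The 7 genes of border macrophages summed to 9.60 CPM on day 7 with the label WT, against 8.76 and 7.19 CPM in sham. Of these, 5 of 7 were above the sham mean there. *F13a1* (31 reads, against 17 and 7 in sham) and *Ms4a7* (12 reads, against 1 in each sham library) were highest in that library. So was *Cbr2* (13 reads, against 5 and 2 in sham). *Cd163* was lower in BCAS with the label WT against sham (-0.63, SE 0.27, limma p under 0.05 and adjusted p 0.908). The 6 lymphocyte genes summed to 0.80 CPM on day 7 and 2.52 CPM on day 10 with the label WT, against 0.16 and 0 CPM in sham and 0.33 CPM or less in the other 4 libraries, so they too were highest in 2 of the libraries where the disease-associated genes were high. *Gfap*, the intermediate filament gene of astrocytes, was at 1415 CPM on day 7 and 1060 CPM on day 10 with the label WT and 427 CPM on day 14 with the label TRPA1-KO, against 200 and 234 CPM in sham. It was thus high in the same 3 libraries as the disease-associated genes. The 8 astrocyte genes had a median difference from sham of 0.43, 0.11, and 0.13 in those libraries, and *Aldh1l1* was higher in BCAS with the label WT against sham (0.43) and against BCAS with the label TRPA1-KO (0.46) with limma p under 0.05. Fibroblast genes had medians of 0.87, 0.65, and 0.32 there, and *Col1a2*, a collagen gene, was higher in BCAS with the label WT against sham (0.62, SE 0.19, limma p under 0.05 and adjusted p 0.828). Their most abundant gene, *Igf2*, was at 12.5 CPM on day 7 with the label WT, below its 16.5 and 15.0 CPM in sham, while *Dcn* was at 11.1 CPM against 3.68 and 2.40 CPM. The part of these cells in the differences was not tested.

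The remaining lists moved less or the other way. Oligodendrocyte genes had a median below sham in every BCAS library, between -0.32 and -0.11, and *Mog*, *Mag*, and *Opalin* were lower in BCAS with the label WT against sham with limma p under 0.05 (none adjusted). With the label TRPA1-KO, *Mog* and *Mobp* were lower against sham with limma p under 0.05. On day 7 the median was -0.32 with either label. Against BCAS with the label TRPA1-KO, *Mog* was higher (0.51, SE 0.077) and *Opalin* lower (-0.29, SE 0.10) with the label WT. Both had limma p under 0.05, and neither passed the adjustment. Genes of oligodendrocyte precursors, neurons, endothelial and mural cells, and ependymal and choroid plexus cells had medians between -0.34 and 0.33 in the BCAS libraries. Of these, *Pdgfra* was lower (-0.23) and *Pdgfrb* higher (0.34) in BCAS with the label WT against sham with limma p under 0.05. *Gpr17* (0.48) and *Pecam1* (0.33) were higher against BCAS with the label TRPA1-KO, and *Kl* (0.51) was higher in BCAS with the label TRPA1-KO against sham. Among the neuronal genes, *Ppp1r1b* and *Drd1*, which mark neurons of the striatum beside the tract, were lower in BCAS with either label against sham. *Ppp1r1b* was at 412 and 542 CPM in sham and between 233 and 380 CPM in the 6 BCAS libraries, and the part of dissection in the comparisons with sham was not tested.

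Levels can be compared between genes only per length. Per kilobase of all annotated exons, the sham means were 437 CPM for *Apoe*, 9.88 for *Tyrobp*, 8.91 for *Axl*, 2.69 for *Spp1*, 1.85 for *Trem2*, 1.82 for *Lpl*, 0.237 for *Gpnmb*, 0.146 for *Cst7*, 0.089 for *Clec7a*, and 0.053 for *Itgax*. The ranges of the 2 sham libraries overlapped between *Tyrobp* and *Axl*, between *Trem2* and *Lpl*, between *Gpnmb* and *Cst7*, and among *Cst7*, *Clec7a*, and *Itgax*. On day 7 with the label WT, *Spp1* moved to the second place, at 265 CPM per kilobase behind *Apoe* at 685, and *Gpnmb* (12.01) came next to *Axl* (13.1). Exons of every annotated transcript were counted in the length, which lowers the level per kilobase of genes with many isoforms.

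Over the 8 libraries, the 45 pairs of the 10 genes had Pearson correlations between 0.58 and 0.99 with a median of 0.88, and the shared day 7 library weighed heavily in them. Without it, the median was 0.65 and the range -0.36 to 0.96. Among 15143 other genes that reached 1 CPM on average, those whose pattern over the 8 libraries was most like the mean of the 10 (each gene scaled to its own mean and SD) were *Cyth4* (r = 0.998), *Adgre1* (0.995), *Grn* (0.994), *C1qb* (0.993), and *Bin2* (0.993). These points share their library and its normalization, and no p is given. *Adgre1* encodes a macrophage surface receptor and was at 4.30 and 4.99 CPM in sham, at 21.4, 8.07, and 4.28 CPM with the label WT, and at 6.87 CPM on day 14 with the label TRPA1-KO. *Grn*, which encodes the lysosomal protein progranulin, was at 47.3 and 46.9 CPM in sham and at 200.1, 87.1, and 43.9 CPM with the label WT, with 62.6 CPM on day 14 with the label TRPA1-KO.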

How the data were processed

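Corpus callosum RNA from mice gave 8 libraries, 1 for each combination of label, operation, and day used. Per the study's methods, polyadenylated RNA was selected, libraries were made with a NEBNext Ultra kit, and reads were mapped to GRCm38 with HISAT. The authors counted reads per gene with subread (featureCounts) and normalized them with edgeR. The gene annotation, strand setting, and gene filter are not given in the sources used here.

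The deposited values are a signal per gene, that is reads per gene over the library's effective size, expressed as CPM and not log-transformed. In each library 100% of values were multiples of the value of 1 read (tolerance 0.01), so whole reads were recovered. Each sample is a separate library by its labels. Per the study's methods, a sample comes from 1 mouse. Days served as replicates, so p-values measure the spread over days and mice together.

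The limma test (version 3.58.1, trend, R 4.3.3) used log2(CPM + 1) of the 18123 genes that averaged 0.1 CPM or more. BCAS with the label WT was compared with BCAS with the label TRPA1-KO in 6 libraries. Comparisons with sham used 1 fit of 8 libraries, with both sham libraries as 1 group. Fold changes on this scale understate changes of low genes. Exact permutation tests over libraries counted arrangements with an equal or larger difference of means. Intervals are exact at 95% and, like the floor of 3 reads, cover counting error only. Alternatives were edgeR 4.0.16 and DESeq2 1.42.0 on the recovered reads, a pseudocount of 0.1, other filters, robust moderation, equalized medians, all 8 libraries in 1 fit, a day block, and leaving out each library. limma, edgeR, and DESeq2 were first tested on simulated data. edgeR called 2 genes at an adjusted p under 0.05 for the label comparison, 0 for BCAS of both labels or of the label WT against sham, and 1 for the label TRPA1-KO against sham. DESeq2 called 17, 9, 24, and 4 in that order.

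The text names the 10 genes, *Trpa1*, and the 5 genes most like the members. Of each other list it names up to 3 most abundant genes and those with p under 0.05. *Lgals3*, *Sall1*, *Fcrls*, *Gfap*, *Ms4a7*, *Cbr2*, and the 6 neutrophil genes fall outside this rule and were chosen after their values were seen. The genes and lists were chosen with earlier results of these data known. Positions and exon lengths come from GENCODE on GRCm38. Start-site windows come from RefSeq.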

Additional observations from a re-analysis of the deposited data

Results flagged for a closer look

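In the 6 BCAS libraries, the day 7 library labelled WT was separated from the other 5 by a larger share of the whole range than Dixon's critical value of 0.625 for 3 of the 10 genes. On the log2(CPM + 1) scale, the share was 0.880 for *Spp1*, 0.740 for *Apoe*, and 0.635 for *Gpnmb*. In these genes the library was the highest, at 436, 1465, and 78.3 CPM. Chance flags about 1 in 20 groups, and the 10 genes share the same libraries, so the 3 flags are not independent. The rule was applied to the 10 genes only, so the share of all genes tested that it would flag is not known. That library was the highest of the 8 for 21.9% of all genes tested. For the other 7 genes the gap above or below the remaining libraries was under that value.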

How the results depend on the processing

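Limits. Each day and label had 1 library, so the spread between mice of the same day is unknown, and *Clec7a*, *Cst7*, and *Itgax* had 6 reads or fewer in both sham libraries together. Beyond the libraries, the count of genes with p under 0.05 depended on the tool. For BCAS with the label WT against the label TRPA1-KO it was 0 in the fit reported, 5 with edgeR, and 1 with DESeq2. It was 2 (*Tyrobp* and *Gpnmb*) with a pseudocount of 0.1, with equalized medians, with all 8 libraries in 1 fit, and with day as a replicate block. Between 2.1% and 3.53% of all genes tested were higher at that threshold in these fits. No pairing of the libraries by day was seen over 10744 genes. The correlations of their deviations from the group means were -0.1, 0.0051, and -0.26 on days 7, 10, and 14. Each group mean rests on 3 libraries, so these values cannot show that the day has no effect. For BCAS of both labels against sham the count was 0 in the fit reported. It was 2 with edgeR, DESeq2, equalized medians, or a pseudocount of 0.1. Between 1% and 1.61% of all genes tested were higher in these fits. The median log2 fold change was 1.55 with edgeR and 1.58 with DESeq2 against 0.74. For the label WT against sham the count was 5 in the fit reported, 3 with no filter, and 0 with robust moderation. Between 2.19% and 2.44% of all genes tested were higher in these fits. The median was 1.96 with edgeR and 1.97 with DESeq2 against 1.10. With a pseudocount of 0.1 in limma these medians were 1.01 and 1.47, and the cause of the remaining difference was not tested. For the label TRPA1-KO against sham the count was 0 in the fit reported and 1 with DESeq2, where 1.07% and 0.579% of all genes tested were higher. No alternative that kept all libraries turned the sign of any of the 40 fold changes or gave one of the 10 genes an adjusted p under 0.05. Leaving out the day 14 library labelled WT gave 2 of the 10 an adjusted p under 0.05 (limma) against sham. In that fit 45 of all 18123 genes tested passed, 41 of them higher, against 0 in the fit reported.

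Over fits that left out 1 library, the counts ran from 0 to 7 for the label comparison and for both labels against sham, from 0 to 9 for the label WT against sham, and from 0 to 1 for the label TRPA1-KO against sham. In the fits with the highest counts, 6.75%, 3.45%, 6.54%, and 0.839% of all genes tested were higher at that threshold, in that order. For the label comparison, this share ran from 1.09% to 6.75% over the fits. A group left with 1 library was assumed to vary like the others. The medians ran from 0.18 to 1.27, from 0.45 to 0.93, from 0.53 to 1.56, and from 0.048 to 0.41 in that order. Of the 40 fold changes, 12 turned sign in at least 1 such fit. For the label comparison, these ran from -0.028 to 0.34 for *Apoe*, from -0.082 to 3.17 for *Spp1*, from -0.15 to 0.68 for *Lpl*, and from -0.15 to 0.51 for *Itgax*. *Lpl* ran from -0.16 to 0.26 for both labels against sham and from -0.23 to 0.60 for the label WT against sham. For the label TRPA1-KO against sham, the ranges were -0.033 to 0.49 for *Cst7*, -0.058 to 0.12 for *Apoe*, -0.059 to 0.67 for *Clec7a*, -0.037 to 0.36 for *Spp1*, -0.0062 to 0.046 for *Axl*, and -0.32 to 0.18 for *Lpl*. In the 6 BCAS libraries alone, the *Trpa1* difference between the labels was -0.78 on the log2 scale (two-sided exact permutation p = 0.1, the smallest that 3 against 3 can give), against -0.80 in all 8. Against the sham library of their own label instead of the sham mean, the medians of the 10 genes were 2.04, 0.86, and 0.0068 on days 7, 10, and 14 with the label WT and 0.060, 0.058, and 0.55 with the label TRPA1-KO. This alternative was chosen after seeing the data. So was leaving *Spp1* and *Gpnmb* out of the label comparison, which gave a median of 0.49.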
